A study of Homo sapiens with 6 samples.

Results

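The NF-κB subunit and feedback genes examined here are 10 genes, measured in the cell line EndoC-βH1 with 1 µM AZD7762 or with the vehicle DMSO. They were named for their roles and matched by symbol to 10 of the 60671 Ensembl gene identifiers in each count table, 34742 of them with any count. The group was chosen by a measured value, the log2 fold change of NFKBIZ in this same comparison, where it was among the lowest, so the values of NFKBIZ are given as a description without a test. The remaining 9 were named for function, with results of these data known, and the question was whether the fall of NFKBIZ was shared by other feedback genes.

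EndoC-βH1 is a wild-type human β cell line, derived from fetal pancreas and kept in culture with SV40 large T antigen and telomerase. AZD7762 inhibits the checkpoint kinases CHEK1 and CHEK2, and the study reports that it also acts on other kinases. All 6 samples (3 DMSO and 3 AZD7762) were first held for 1 h at 0.5 mM glucose and then for another 1 h at either 0.5 or 20 mM, with DMSO or AZD7762 present in both steps. The glucose level of the second step is not stated for each sample. The methods call in vitro replicates independent in general but do not say for these samples whether they were separate cultures, so p-values measure the spread between these samples, which may be technical. The samples held between 20486391 and 29402440 counts, and 3 counts, used as the floor of detection, corresponded to at most 0.146 CPM (counts relative to the size of the library), a limit that covers counting error only. The share of counts on mitochondrial genes lay between 1.57% and 2.13% in the DMSO samples and between 2.26% and 2.63% in the AZD7762 samples, without overlap, and its part in the results was not tested.

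NF-κB is a family of dimeric transcription factors. In resting cells the IκB proteins hold the dimers in the cytoplasm, and inflammatory signals lead to phosphorylation and breakdown of IκB and to entry of the dimers into the nucleus. Many of the genes that the dimers then switch on encode their own inhibitors, such as NFKBIA and TNFAIP3. NFKBIZ encodes IκBζ, an atypical IκB that sits in the nucleus and acts with NF-κB as a cofactor on a subset of its target genes, and its mRNA is short-lived. In β cells the pathway is best known from the response to interleukin-1β and other cytokines of islet inflammation.

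The κB motif, the DNA element that NF-κB dimers bind, is shown first because several of these genes are textbook NF-κB targets. RefSeq promoter windows (GRCh38.p14, 250 bases before to 50 bases after a start site) were found for 8 of the 10 genes, and not for NFKBIE and RELB. A match to the κB consensus on either strand was present in at least 1 window of 7 of these 8 genes, and in 13.3% of the 27305 genes with a window. RELA had no match in either of its windows. Both windows of NFKBIZ held a match, as did the windows of NFKBIA, TNFAIP3 and BIRC3. The stretches below are a selection, without those of NFKB2 and NFKBIB and without the second match of BIRC3. They run 5′ to 3′ on the strand of the gene, with the match in capitals. All were found with the same consensus, so their likeness follows from the search.
NFKBIZ, first start (chr3:101827757-101827786, + strand): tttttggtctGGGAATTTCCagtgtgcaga
NFKBIZ, second start (chr3:101849265-101849294, + strand): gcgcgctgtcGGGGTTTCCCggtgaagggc
NFKBIA (chr14:35404811-35404840, - strand): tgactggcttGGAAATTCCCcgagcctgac
TNFAIP3, upstream match (chr6:137867182-137867211, + strand): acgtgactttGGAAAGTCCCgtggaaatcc
TNFAIP3, downstream match (chr6:137867194-137867223, + strand): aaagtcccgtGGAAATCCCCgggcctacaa
NFKB1, first start (chr4:102501300-102501329, + strand): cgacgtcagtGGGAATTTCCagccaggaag
BIRC3 (chr11:102317275-102317304, + strand): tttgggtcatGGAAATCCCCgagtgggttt
The 10-base match of the first NFKBIZ start and that of NFKB1 are the same letters, and they begin at positions -223 and -49 relative to their start sites. The match of the second NFKBIZ start begins at -239, near the far end of its window. The matches of NFKBIA and TNFAIP3 begin at -81, -67 and -55. A match is a description of letters and not evidence of binding in these cells.

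Before treatment is considered, the genes differed in level. Levels between genes were compared per length, as CPM divided by the length of all annotated exons in kilobases (FPKM), in the 3 DMSO samples. RELA, the transactivating subunit of the canonical dimer, stood highest with 8.80 ± 0.638 FPKM (SD, n = 3). NFKBIB (6.88 ± 0.398), NFKBIA (4.95 ± 0.679) and NFKBIE (4.38 ± 0.480 FPKM), the classical cytoplasmic inhibitors, came next, and the ranges of NFKBIA and NFKBIE overlapped. NFKBIZ was in the middle of the order with 1.85 ± 0.211 FPKM, beside NFKB2 (1.44 ± 0.200) and TNFAIP3 (1.39 ± 0.170 FPKM), and neighbours among these 3 overlapped. NFKB1 had 1.13 ± 0.0682 and RELB 0.698 ± 0.216 FPKM. BIRC3, an inhibitor of apoptosis and ubiquitin ligase, was lowest with 0.0369 ± 0.00989 FPKM, from 4 to 9 counts per DMSO sample. With the length of the longest transcript in place of all exons, 3 of the 10 genes changed their place in this order, and 5 did with coding length. With AZD7762 the level of NFKBIZ was 0.691 ± 0.228 FPKM, next to 0.682 ± 0.163 FPKM for RELB.

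The comparison of AZD7762 with DMSO was fitted over all 17649 genes that passed the filter on low counts. These included 9 of the 10 genes, all but BIRC3. In this fit 1 of the 9, NFKBIZ, was called (adjusted p under 0.05), and it was lower. None was called higher. Over all genes tested, 0.708% were called, 0.351% lower and 0.357% higher. Since the rule used this contrast, nothing is read from the call of NFKBIZ. Of the other 8 tested, 0 were called in edgeR's quasi-likelihood test, 2 (NFKBIA and TNFAIP3) had an unadjusted p under 0.05, and both of these were higher with AZD7762. An unadjusted p under 0.05 was found for 9.68% of all genes tested, 5.25% lower and 4.43% higher. The genes called split into 63 higher and 62 lower, and with libraries scaled by their totals into 59 higher and 90 lower. A fit with the replicate number as a block called 378 genes in place of 125, and NFKBIZ remained the 1 member called.

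NFKBIZ (ENSG00000144802) lies on chromosome 3 of GRCh37 from 101546835 to 101579866. It had 9.51, 11.4 and 11.8 normalized CPM in DMSO replicates 1, 2 and 3. In AZD7762 replicates 1, 2 and 3 it had 4.13, 2.71 and 5.39 CPM. All 3 AZD7762 samples lay below all 3 DMSO samples, and the highest AZD7762 sample was still well under the lowest DMSO sample. The group means were 10.9 ± 1.24 and 4.08 ± 1.34 CPM (SD, n = 3 per group), or a log2 fold change of -1.41 (standard error, SE, 0.184), which is 0.375 times the DMSO level with a 95% interval from 0.284 to 0.495. This was the fifth lowest log2 fold change among the genes tested. The spread was wider with AZD7762, with a coefficient of variation of 32.9% against 11.4% with DMSO. AZD7762 replicate 2 was the lowest and replicate 3 the highest of the treated samples, and the log2 fold change was -1.21 without replicate 2 and -1.65 without replicate 3. In bulk RNA, fewer cells with a transcript and less of it per cell cannot be told apart.

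Of the NFKBIZ exon length, 3.29% overlaps NXPE3, a neighbour on the same strand. NXPE3 averaged 42.7 ± 1.42 CPM in the DMSO samples and 40.2 ± 0.286 CPM in the AZD7762 samples (SD, n = 3 per group), or a log2 fold change of -0.09 (edgeR adjusted p = 0.704).

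**Figure D1:**
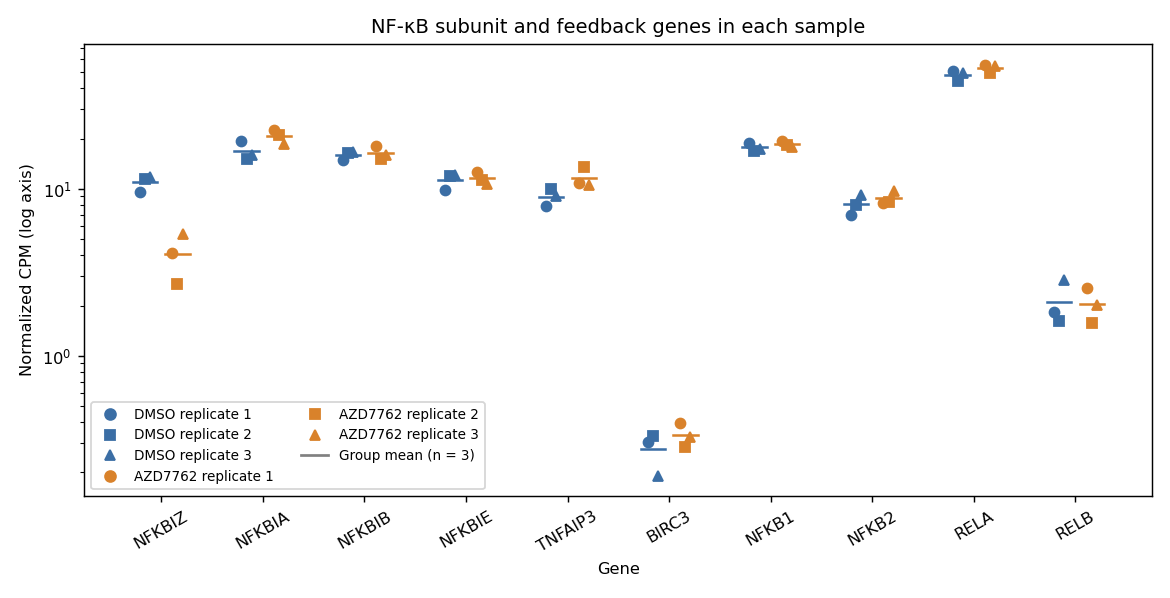
Normalized CPM on a log axis for the 10 NF-κB subunit and feedback genes, with 1 point for each sample (blue DMSO, orange AZD7762, shape for the replicate number) and a short line for the mean of 3 samples. NFKBIZ is the gene whose groups lie far apart (means of 10.9 and 4.08 CPM), whereas NFKBIA, NFKBIB, NFKBIE, NFKB1, NFKB2, RELA, RELB and BIRC3 overlap between the groups.

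None of the classical inhibitors was called. NFKBIA (ENSG00000100906, chromosome 14, 35870285 to 35873955) encodes IκBα, the inhibitor that NF-κB resynthesizes to end its own activation. It had 19.4, 15.1 and 15.9 CPM in the DMSO replicates and 22.6, 21.1 and 18.7 CPM in the AZD7762 replicates. The groups overlapped, because DMSO replicate 1 lay above AZD7762 replicate 3. Within each replicate number the AZD7762 sample was the higher one, but whether the numbers mark pairs is uncertain. The log2 fold change was 0.30 (SE 0.108, 95% interval 0.07 to 0.54), with an edgeR adjusted p of 0.364 over all genes. With the replicate number as a block it was 0.31 (edgeR adjusted p = 0.0635), and NFKBIA was again not called.

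NFKBIB and NFKBIE encode IκBβ and IκBε, which bind the same dimers with slower turnover or in other combinations. NFKBIB lay between 14.9 and 16.7 CPM with DMSO and between 15.2 and 17.9 CPM with AZD7762. NFKBIE lay between 9.89 and 12.1 CPM with DMSO and between 10.7 and 12.6 CPM with AZD7762. The groups overlapped for both genes. Their log2 fold changes were 0.04 (95% interval -0.16 to 0.24) and 0.04 (-0.20 to 0.27), and edgeR gave them adjusted p of 0.923 and 0.940.

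TNFAIP3 encodes A20, a ubiquitin-editing enzyme that shuts off signalling to the IκB kinase. Its gene (ENSG00000118503) lies on chromosome 6 from 138188351 to 138204451. It had 7.85, 10.0 and 9.06 CPM in the DMSO replicates and 10.8, 13.4 and 10.5 CPM in the AZD7762 replicates. All 3 AZD7762 samples lay above the 3 DMSO samples, which held for 6.79% of all genes tested in this direction and for 15.0% in either direction. The log2 fold change was 0.37 (SE 0.125, 95% interval 0.10 to 0.64), and edgeR gave it an adjusted p of 0.339 over all genes. With the replicate number as a block it was 0.37 (edgeR adjusted p = 0.0607), and TNFAIP3 was again not called. AZD7762 replicate 2 had the highest TNFAIP3 and the lowest NFKBIZ of the 6 samples. BIRC3 encodes cIAP2, a ubiquitin ligase at tumour necrosis factor receptors that NF-κB induces. It held 9, 9 and 4 counts with DMSO and 10, 6 and 7 counts with AZD7762, and at this depth a difference was not detectable.

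Among the subunits, RELA was the most abundant, at 48.0 ± 3.48 CPM in the DMSO samples and 53.2 ± 3.33 CPM in the AZD7762 samples (SD, n = 3 per group). Its log2 fold change was 0.15 (SE 0.0738, 95% interval -0.01 to 0.31, edgeR adjusted p = 0.552), and the groups overlapped. NFKB1 encodes the p105 precursor of p50 and had 17.7 ± 1.07 and 18.5 ± 0.737 CPM, which is a log2 fold change of 0.06 (edgeR adjusted p = 0.868). NFKB2, the p100 precursor of p52, had 8.06 ± 1.11 and 8.77 ± 0.817 CPM, which is a log2 fold change of 0.13 (edgeR adjusted p = 0.795). RELB, which pairs with p52 in the non-canonical pathway, had 2.09 ± 0.646 and 2.04 ± 0.489 CPM, which is a log2 fold change of 0.01 (edgeR adjusted p = 0.994). RELB varied most with DMSO among the 9 tested, with a coefficient of variation of 30.9%, set by 2.83 CPM in replicate 3 against 1.83 and 1.62 CPM in replicates 1 and 2.

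The intervals show how large a fall could have been missed. For RELB the 95% interval reached down to a log2 fold change of -0.51. For the other 7 tested genes its lower end lay between -0.20 and 0.10. Samples were also compared within replicate numbers, although whether these mark pairs is uncertain. Of the 9 tested genes, 5 (NFKBIA, TNFAIP3, RELA, NFKB1 and NFKB2) were higher with AZD7762 in all 3 comparisons. This held for 20.4% of all genes tested. The 1 gene of the 9 that was lower in all 3 was NFKBIZ, and 17.3% of all genes tested were. The direction of RELB, NFKBIB and NFKBIE turned negative after a correction for GC content and length, and also without AZD7762 replicate 1 or DMSO replicate 1, with log2 fold changes no lower than -0.20. RELB also turned negative under 5 further alternatives. The estimates of NFKBIZ were negative, and those of NFKBIA, TNFAIP3, RELA, NFKB1 and NFKB2 positive, under each of the 15 alternatives tried. For NFKBIZ this is a description, since it was chosen for its fall in the same samples.

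**Figure D2:**
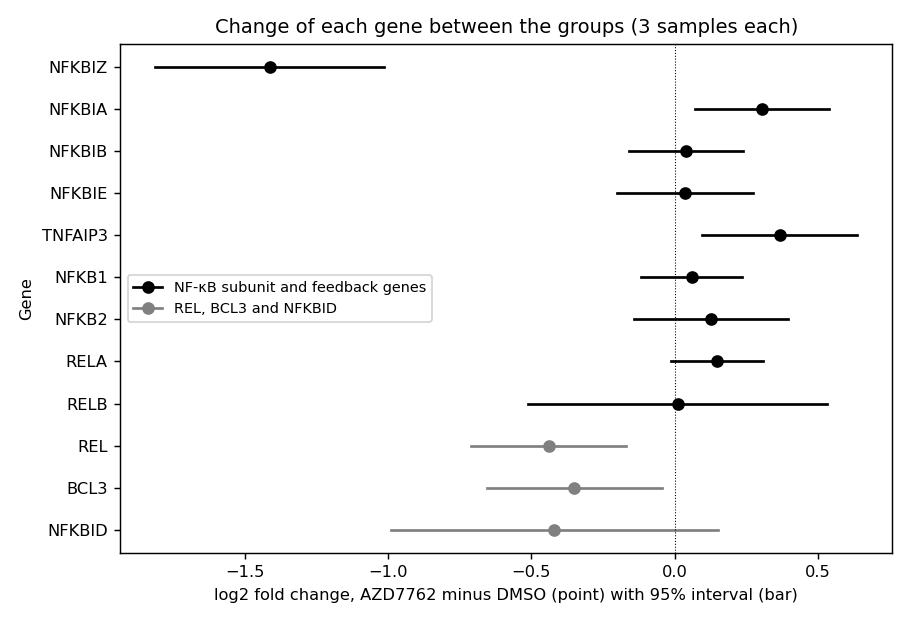
Log2 fold change of AZD7762 against DMSO (points, horizontal axis) with its 95% interval (bars) for the 9 tested NF-κB subunit and feedback genes (black) and for REL, BCL3 and NFKBID (grey). NFKBIZ stands at -1.41, and the other 8 black points lie between 0.01 and 0.37.

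A ratio within a library does not depend on how libraries are scaled. The count of NFKBIZ divided by that of NFKBIA was 0.490, 0.757 and 0.746 in DMSO replicates 1, 2 and 3 and 0.183, 0.128 and 0.289 in AZD7762 replicates 1, 2 and 3. On the log2 scale the mean ratio to NFKBIA was -0.62 with DMSO and -2.40 with AZD7762, a difference of -1.78. Against the other 8 genes in turn, the mean log2 ratio differed by between -1.84 (TNFAIP3) and -1.45 (RELB), and for each of the 9 denominators the 2 groups did not overlap. The ratio to NFKBIE was the most even with DMSO, from -0.06 to -0.03, and ranged from -2.06 to -0.99 with AZD7762. These ratios show unequal change between NFKBIZ and the other genes and are a description, since NFKBIZ was chosen for its fall.

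**Figure D3:**
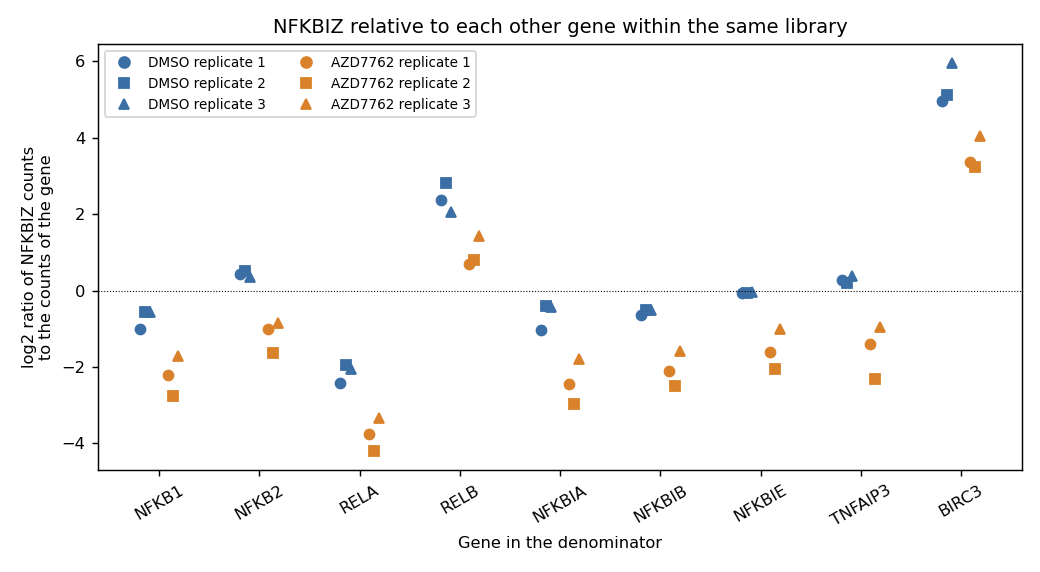
Log2 ratio of the NFKBIZ count to the count of each of the other 9 genes in the same library (blue DMSO, orange AZD7762, shape for the replicate number). For all 9 denominators the 3 AZD7762 points lie below the 3 DMSO points, and for NFKBIA the ranges are -1.03 to -0.40 with DMSO and -2.96 to -1.79 with AZD7762.

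Genes of the pathway beyond the 10 were taken from lists written by role. Together the lists held 105 genes, of which 104 were matched and 69 were tested. Of these 69, 2 were called, both lower with AZD7762 (PTGS2 and ZC3H12C), beside 0.351% of all genes tested called lower, and the median log2 fold change was -0.03, beside 0.0076 over all genes tested.

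REL and the other nuclear IκB genes were closest to NFKBIZ in kind. REL encodes c-Rel, the remaining subunit, and BCL3 and NFKBID encode nuclear IκB proteins related to IκBζ. None of the 3 was called in the fit on treatment alone with the filter on low counts. In edgeR's test 2 of the 3, REL and BCL3, were lower at an unadjusted p under 0.05. This held for 5.25% of all genes tested. REL had 14.2, 15.3 and 15.9 CPM with DMSO and 8.83, 12.0 and 12.7 CPM with AZD7762, and the groups did not overlap. Its log2 fold change was -0.44 (SE 0.124, edgeR adjusted p = 0.211). With the replicate number as a block, and likewise with no filter, REL passed the threshold, in the first case at -0.45 on the log2 scale, with an edgeR adjusted p of 0.0211. Of its exon length, 33.3% overlaps another gene on the same strand, so that its count is uncertain.
BCL3 had 4.57, 5.15 and 5.75 CPM with DMSO and 4.37, 3.47 and 4.17 CPM with AZD7762, again without overlap. Its log2 fold change was -0.35 (SE 0.141, edgeR adjusted p = 0.441). NFKBID lay between 1.07 and 1.53 CPM with DMSO and between 0.760 and 1.36 CPM with AZD7762, with overlap and a log2 fold change of -0.42 (edgeR adjusted p = 0.651). The share of all genes tested whose AZD7762 samples lay below every DMSO sample was 8.25%.

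Proteins that carry the signal from receptors to NF-κB were represented by 23 tested genes, among them the IκB kinase subunits CHUK, IKBKB and IKBKG. None was called, 12 had a negative and 11 a positive log2 fold change, and the median was -0.01. TRAF2, an adaptor of tumour necrosis factor receptors, had the largest positive value, 0.25 (edgeR adjusted p = 0.384), and IKBKE the largest negative one, -0.27 (edgeR adjusted p = 0.798). TAB2 and IRAK1 had the highest CPM, with log2 fold changes of 0.03 and 0.10.
Among the 10 tested genes for other brakes on the pathway 0 were called, 7 had a positive value and the median was 0.02. TNIP1, which binds A20, had a log2 fold change of 0.15 (edgeR adjusted p = 0.515) and TANK one of 0.10. The ubiquitin enzymes ITCH and CYLD, which had the highest CPM of the list, had log2 fold changes of 0.01 and -0.04, and the sign of both turned under some alternatives. Other genes on the same strand overlap 23.9% of the exon length of ITCH, so that its count is uncertain.

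Of 13 receptors, 10 were tested and 0 were called, with log2 fold changes from -0.15 to 0.14. IL17RD and IL17RA, which carry signals of the interleukin-17 family, had the largest sizes, both at -0.15. LTBR and TNFRSF11A had the highest CPM of the list, a scale without correction for length, with 21.7 ± 1.88 and 21.9 ± 0.370 CPM with DMSO (SD, n = 3) and log2 fold changes of 0.14 and -0.13. Of 9 ligands, 2 were tested and 0 called. TNFSF11 (RANKL) had a log2 fold change of -0.49 (edgeR adjusted p = 0.531) and TNFSF13B (BAFF) one of -0.03, whose sign turned under some alternatives. The other 7 ligands, including TNF and IL1B, summed to between 3 and 11 counts per sample.

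**Figure D4:**
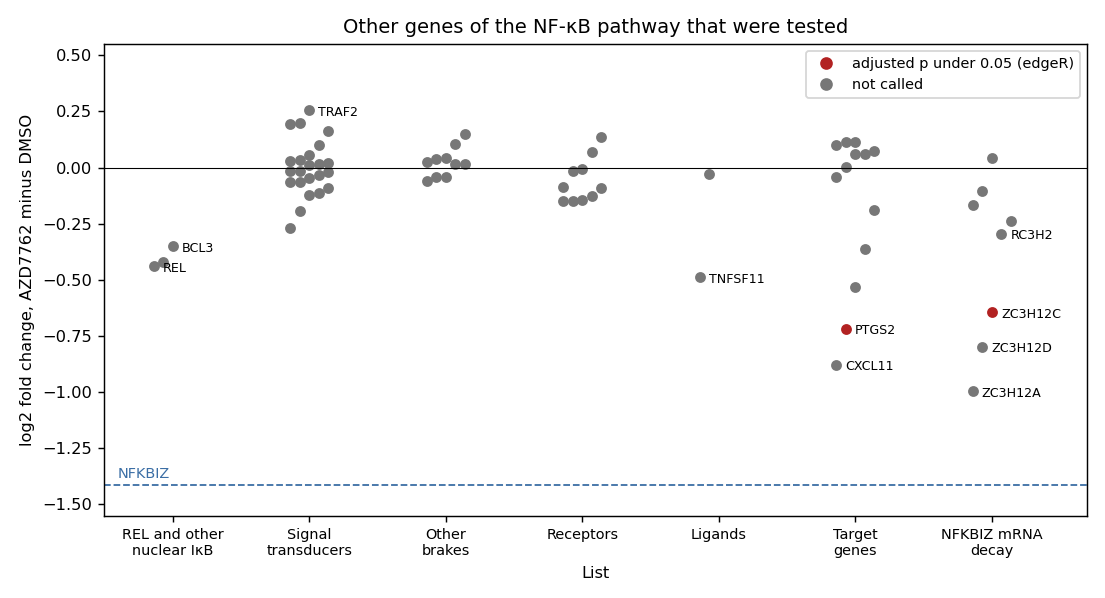
Log2 fold change of AZD7762 against DMSO for each tested gene of 7 lists of NF-κB pathway genes (red, called, edgeR adjusted p under 0.05; grey, not called), with a dashed line at the value of NFKBIZ, -1.41. The points lie around 0 for transducers, brakes and receptors, PTGS2 and ZC3H12C are the called genes, and 7 of 8 points of the mRNA decay list lie below 0.

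The tested target genes of NF-κB showed little shared change. Of 30 listed, 29 were matched and 13 tested, of which 6 had a negative and 7 a positive log2 fold change, with a median of 0.00186. The listed target without a match was SOD2. Its symbol belonged to no identifier of the count tables in the annotation used here, so its level is not known. PTGS2 fell. It encodes cyclooxygenase 2, the inducible enzyme of prostaglandin synthesis, which other pathways such as cAMP signalling induce as well (ENSG00000073756, chromosome 1, 186640923 to 186650054). PTGS2 had 30.3, 26.4 and 24.2 CPM with DMSO and 16.1, 16.6 and 16.6 CPM with AZD7762, and no AZD7762 sample reached the DMSO range. The log2 fold change of PTGS2 was -0.72 (SE 0.0917, edgeR adjusted p = 0.00137), and it was called under 15 of 15 alternatives. For PTGS2, 3.99% of the exon length overlaps an antisense gene.
CXCL11, a chemokine, had a log2 fold change of -0.88 (edgeR adjusted p = 0.567) at under 1 CPM. The survival genes BCL2L1 and CFLAR, which had the highest CPM of the list, had log2 fold changes of 0.11 (edgeR adjusted p = 0.541) and 0.06 (edgeR adjusted p = 0.851). Antisense genes overlap 41.3% of the exon length of BCL2L1 and 10.1% of that of CFLAR, so that their counts are uncertain. The 16 matched targets that did not pass the filter, including CXCL8, IL6 and ICAM1, had a mean of at most 0.385 CPM each. The highest of these, CXCL2, a chemokine named here after its values were seen, held 8, 2 and 6 counts with DMSO and 15, 8 and 15 counts with AZD7762, and it was not tested.
Genes known to need IκBζ in other cells, such as LCN2 and CSF3, were listed separately. None of the 9 passed the filter, and together they held between 11 and 27 counts per sample, so that no change was detectable at this depth.

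The last list held 8 genes for proteins that act on the stability of inflammatory transcripts, NFKBIZ mRNA among them. It is not uniform in action: Regnase (ZC3H12) and Roquin (RC3H) proteins promote decay, ARID5A opposes it, and MALT1 cleaves Regnase-1 and Roquin. All 8 were tested, 1 was called (ZC3H12C, lower), 7 had a negative log2 fold change, and the median was -0.27. In 5 of the 8 all AZD7762 samples lay below all DMSO samples, and 4 of the 8 were lower at an unadjusted p under 0.05. Over all genes tested these shares were 8.25% and 5.25%, and 0.351% were called lower.
ZC3H12C (ENSG00000149289, chromosome 11, 109964118 to 110042566) had 34.8, 28.9 and 33.0 CPM with DMSO and 17.1, 22.1 and 22.7 CPM with AZD7762, without overlap. Its log2 fold change was -0.64 (SE 0.109, edgeR adjusted p = 0.0127). The call was held under 13 of 15 alternatives and lost without DMSO replicate 1 (edgeR adjusted p = 0.0744) or AZD7762 replicate 1 (edgeR adjusted p = 0.0723). ZC3H12A, which encodes Regnase-1, was scarce, at 0.815 ± 0.240 CPM in the DMSO samples and 0.400 ± 0.115 CPM in the AZD7762 samples (SD, n = 3 per group). Its log2 fold change was -0.997 (edgeR adjusted p = 0.360), and that of ZC3H12D was -0.80 (edgeR adjusted p = 0.252).
RC3H2 was the most abundant of the list, with 154, 149 and 151 CPM with DMSO and 110.5, 129 and 131 CPM with AZD7762, without overlap. Its log2 fold change was -0.29 (edgeR adjusted p = 0.1001), and with the replicate number as a block RC3H2 was called (edgeR adjusted p = 0.00989). RC3H1 had a log2 fold change of -0.24 (edgeR adjusted p = 0.540), and its groups overlapped.

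The genes whose pattern over the 6 samples was most like that of NFKBIZ were not among the other 8 tested. Likeness was measured as the root mean square difference of log2 CPM, each gene centred on its own mean, over the 13878 genes whose mean log2 CPM was 1 or more. The nearest 5 were ID1 (0.180), MT1E (0.232), MT1G (0.277), RHOB (0.309) and GPR3 (0.332), and the measure favours genes with a difference of like size between the groups. ID1, an inhibitor of basic helix-loop-helix factors, had 11.0, 11.3 and 13.7 CPM with DMSO and 6.24, 3.33 and 6.05 CPM with AZD7762, with its lowest value in AZD7762 replicate 2, as for NFKBIZ. MT1E and MT1G encode metallothioneins, a family of similar sequences among which reads could be split, and went from 31.6 ± 5.66 to 15.3 ± 3.71 CPM and from 9.79 ± 1.43 to 5.001 ± 1.94 CPM (SD, n = 3 per group), and MT1G was not called (edgeR adjusted p = 0.0673) except with the replicate block (edgeR adjusted p = 0.00043) and under 6 further alternatives. GPR3, a receptor that raises cAMP, went from 3.40 ± 0.162 to 1.83 ± 0.392 CPM (edgeR adjusted p = 0.0361), a call lost without DMSO replicate 1 or 2 or AZD7762 replicate 1 or 2 (edgeR adjusted p from 0.1002 to 0.183). The call of MT1E was lost without AZD7762 replicate 1 (edgeR adjusted p = 0.123). Among the 8 other tested NF-κB genes the difference from NFKBIZ lay between 0.779 (RELB) and 0.989 (TNFAIP3). Any gene without a like fall is distant by this measure, so these distances restate the log2 fold changes and are a description.

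**Figure D5:**
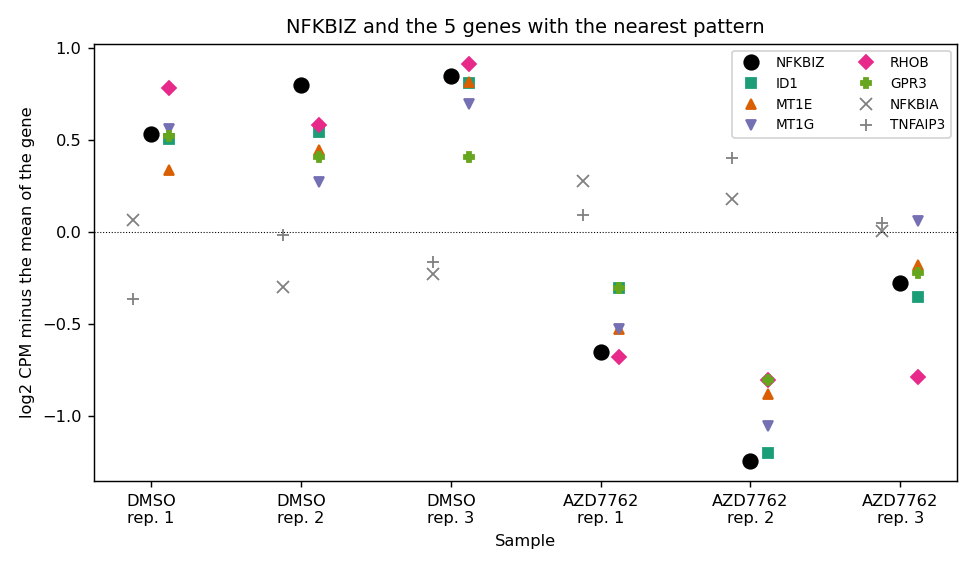
Log2 CPM of NFKBIZ (black) in each sample after subtraction of the mean of the gene, with the 5 nearest genes (coloured) and NFKBIA and TNFAIP3 (grey). AZD7762 replicate 2 is the lowest sample for NFKBIZ, ID1, MT1E, MT1G, RHOB and GPR3, and the 5 genes were chosen for likeness over these samples. For RHOB, AZD7762 replicates 2 and 3 nearly coincide (-0.81 and -0.79). The grey symbols do not follow.

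Cell type markers were checked in the same samples. All 12 β cell markers were tested and 0 were called, with 1260 CPM of INS and 351 CPM of PDX1 on average with DMSO. Of 8 immune cell markers, 2 had no count in any sample, 1 (CD14) was tested, and the 8 together summed to between 2.91 and 3.12 CPM with DMSO and between 2.09 and 2.98 CPM with AZD7762. CD3E and ITGAM were the markers at 0, and PTPRC was near 0. The 6 matched stromal and endothelial markers, of which CDH5 was at 0, summed to between 15.0 and 20.4 CPM with DMSO and between 17.0 and 20.3 CPM with AZD7762. The 6 exocrine and duct markers, of which PRSS1, CELA3A and AMY2A were at 0, summed to between 45.4 and 51.9 CPM with DMSO and between 50.3 and 56.4 CPM with AZD7762. COL1A2 had 2.74 to 3.24 CPM with DMSO and 3.90 to 4.64 CPM with AZD7762, a log2 difference of 0.58 (edgeR adjusted p = 0.125). CPA1 had 21.0 to 22.6 CPM with DMSO and 24.7 to 27.5 CPM with AZD7762, a log2 difference of 0.24 (edgeR adjusted p = 0.308). For both, all AZD7762 samples lay above all DMSO samples. The part of these cell types in the results was not tested.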

How the data were processed

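RNA-seq was performed on polyadenylated RNA of 6 samples, grouped by the treatment in their titles. Per the labels, reads were checked with FastQC 0.10.1 and trimmed with cutadapt 1.18. The authors used the GRCh37 genome and HTSeq-count to obtain gene counts. The aligner and the strand setting are not given in the sources used here. The deposited values are raw counts per gene, 1 file per sample. Libraries were made with a stranded or an unstranded kit, without a statement of which, so genes that overlap on either strand are uncertain.

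Symbols, positions and exon lengths came from GENCODE release 44 lifted to GRCh37, which matched 58646 of 60671 identifiers. The annotation used for counting is not given in the sources used here and may differ, which bears on exon lengths, levels per length and overlaps. Testing used edgeR 4.0.16 under R 4.3.3 (filterByExpr, TMM factors between 0.983 and 1.02, quasi-likelihood test on treatment alone, Benjamini-Hochberg adjustment over the 17649 genes tested, threshold 0.05, two-sided). Standard errors were derived from each log2 fold change and its F statistic, and normalized CPM use the scaled library totals. The biological coefficient of variation was 7.15%. The methods of the study name no test for these counts.

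The members, lists, design and alternatives were chosen with earlier results of these data known. Named genes were the 10 members, REL, BCL3, NFKBID, each called gene of the lists, the 2 largest changes and the 2 most abundant genes of each list, and the 5 genes nearest to NFKBIZ. CHUK, IKBKB, IKBKG and genes that did not pass the filter were named as examples. Samples with the same replicate number deviated together from their group means (r across genes 0.126, 0.267 and 0.385 for numbers 1, 2 and 3). DMSO replicate 1 deviated still more like AZD7762 replicate 2 (r = 0.347), and the other differently numbered pairs lay between -0.47 and 0.092. Each same-numbered r was over 0.1, but the r of DMSO replicate 1 with AZD7762 replicate 2 exceeded those of numbers 1 and 2. Whether the numbers mark pairs is thus uncertain. The main fit left the replicate number out, and a fit with it as a block was an alternative. The others were other scalings, filters and tests (DESeq2 1.42.0), GC content and length trends taken out per library, and leaving out each sample. No pair of samples agreed within sampling noise.

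The fits were tested on simulated counts for 17422 genes drawn at the observed means and depths.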

Additional observations from a re-analysis of the deposited data

How the results depend on the processing

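NFKBIZ was lower with AZD7762 under each of the 15 alternatives, with log2 fold changes from -1.65 to -1.21. In each, 1 member was called lower and 0 higher. The alternatives refit the same samples in which NFKBIZ was chosen for its fall. They describe how its values depend on the fit and are no support for the fall. The number of genes called, 125, was 330 with no filter, 267 by the likelihood ratio test of edgeR, 378 with the replicate block and 238 after correction for GC content and length, and between 77 (without AZD7762 replicate 1) and 168 (without DMSO replicate 3) when 1 sample was left out. The cause was not tested. Of REL, BCL3 and NFKBID, 1 (REL) was called without a filter and with the replicate block. In the mRNA decay list 2 genes (ZC3H12C and RC3H2) were called without a filter, with DESeq2, with the likelihood ratio test, with the replicate block and after that correction, and between 0 and 1 with 1 sample left out. Besides REL, RC3H2 and MT1G, the replicate block changed no call among the named genes. GPR3 was called under 11 of 15 alternatives, MT1E under 14 and MT1G under 7.

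In the order by level per length, 3 genes moved with the longest transcript, 5 with coding length, and between 0 and 2 with 1 DMSO sample left out.

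Genes with values near 0 changed sign. RELB was at -0.0063 with upper-quartile scaling, -0.025 with library totals, -0.014 with DESeq2, -0.0022 with the likelihood ratio test and -0.078 after correction for GC content and length. After that correction NFKBIB was at -0.036, NFKBIE at -0.038, CYLD at 0.0069 and TNFSF13B at 0.0044. ITCH was at -0.0025 with upper-quartile scaling and -0.021 with library totals, and TAB2 at -0.00096 with library totals. With 1 sample left out, RELB ranged from -0.20 to 0.26, NFKBIB from -0.043 to 0.084, NFKBIE from -0.059 to 0.091, TAB2 from -0.0031 to 0.059, ITCH from -0.039 to 0.034, CYLD from -0.075 to 0.0052, TNFSF13B from -0.16 to 0.12 and CFLAR from -0.00020 to 0.11.

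With no filter, BIRC3 was at 0.26 (edgeR adjusted p = 0.903), and its 4 to 10 counts per sample limit what can be seen.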
